A study of Mus musculus with 6 samples.

Results

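The subject is a set of 4 microRNAs (miRNAs) whose genes lie in the Hox gene clusters: miR-10a, miR-10b, miR-196a and miR-196b (mmu-miR-10a, mmu-miR-10b, mmu-miR-196a and mmu-miR-196b in the files). They were chosen by name from the 611 mouse miRNA entries of the array, leaving out the opposite (star) arms, and they are read by 10 of its 1759 mouse probes. The samples are MCT cells, an established mouse renal tubular cell line of SJL H-2S background. Per the labels, 3 arrays hold control MCT cells with no listed stimulus, and 3 hold MCT cells kept for 72 hours with 3 ng/ml of TGFβ, transforming growth factor beta. The protocols, given alike for both groups, describe growth in 10% fetal calf serum and a change to 0.5% serum before TGFβ was added. The labels do not say whether the replicates are separate cultures. Each p-value below thus measures the spread between these 6 samples only, and that spread may be technical.

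Hox genes encode transcription factors that set position along the body axis, and the kidney forms from mesoderm in which many of them are active. Genes for miR-10 and miR-196 lie among them, and both miRNA families are known to act on Hox mRNAs. miR-196 is known for directing cleavage of the Hoxb8 mRNA, miR-10b is known for repressing Hoxd10 in tumour cells, and TGFβ is a cytokine widely used to drive tubular cells towards a fibrotic, less epithelial state.

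The mature sequences show why the members form pairs and why their signals need care. They are from RefSeq (GRCm38.p6 tables), 5′ to 3′, with the seed, bases 2 to 8, in capitals:
miR-10a: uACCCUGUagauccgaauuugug
miR-10b: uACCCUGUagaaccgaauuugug
miR-196a: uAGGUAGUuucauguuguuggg
miR-196b: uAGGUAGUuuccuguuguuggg
miR-10a and miR-10b share their seed and 22 of 23 bases, and differ by U12A, counted from 1 at the 5′ end with the base of miR-10a first. miR-196a and miR-196b share their seed and 21 of 22 bases, and differ by A12C. No other mature mouse miRNA in the RefSeq table has either seed. With 1 base between the members of a pair, the array probes may bind both, and cross-binding was not tested because probe sequences are not in the files used here.

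miR-10a comes from Mir10a at chr11:96317165-96317274 on the plus strand (GRCm38.p6), within the annotated span of Hoxb3 and with Hoxb4 as the next protein-coding gene. miR-10b comes from Mir10b at chr2:74726070-74726137, plus strand, within the spans of Hoxd3 and Hoxd4. miR-196b comes from Mir196b at chr6:52230081-52230165, minus strand, between Hoxa9 and Hoxa10. miR-196a has 2 genes, Mir196a-1 at chr11:96265164-96265265 between Hoxb13 and Hoxb9, and Mir196a-2 at chr15:102973350-102973434 between Hoxc10 and Hoxc9, both on the plus strand. Their hairpins are printed with the mature arm in capitals, since they differ around an identical arm:
Mir196a-1: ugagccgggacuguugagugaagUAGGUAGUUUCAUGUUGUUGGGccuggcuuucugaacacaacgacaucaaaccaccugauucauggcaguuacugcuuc
Mir196a-2: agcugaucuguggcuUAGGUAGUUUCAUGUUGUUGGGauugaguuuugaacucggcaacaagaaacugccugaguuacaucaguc
A signal for miR-196a therefore cannot be assigned to the HoxB or the HoxC cluster.

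Between 74 and 103 of the 611 entries were well above background on an array, and 84 entered the test, the 4 Hox-cluster miRNAs among them. Arrays were brought to a common scale with the 75th percentile of the probes well above background on all 6, which lay between 249.5 and 402.4 intensity units, and values below are log2 of that scaled signal unless stated otherwise. Control 1 stood apart: the median absolute log2 difference over the tested miRNAs was 0.48 and 0.52 between control 1 and controls 2 and 3, 0.06 between controls 2 and 3, and 0.16 to 0.26 between control 1 and the TGFβ arrays. Its labelling spike-in signal (log10) was 1.82, against 2.09 to 2.14 on the other 5 arrays. TGFβ 1 stood apart by correlation across the tested miRNAs, which was 0.657 to 0.874 in its 5 pairs with other arrays and 0.898 to 0.995 in the 10 other pairs, and it had the most entries well above background (103). By the median absolute difference TGFβ 1 was 0.33 from TGFβ 2 but 0.21 from TGFβ 3, as close as TGFβ 2 and TGFβ 3 were (0.21). The differences of the members and their probes are therefore also given without control 1 and without TGFβ 1, a choice made with the values known. The tubular label had no support at this sensitivity from the 8 renal tubule and epithelial markers listed here (miR-192, miR-194, miR-215 and the miR-200 family). Of these, 0 were well above background on any array, and their summed scaled signal was 11.9 to 14.9 in control and 12.0 to 14.6 in TGFβ-treated cells. Other miRNAs of tubule or epithelium were not used as markers, so this does not show that none was detected. None of the 5 mesenchymal, 5 blood and 1 endothelial markers on the array was well above background either. Of 4 muscle markers miR-206 was, and their summed signal was 17.3 to 26.0 in control and 26.5 to 32.5 in treated cells. In these sums every marker on the array counts for at least 1 unit, the floor, whether detected or not. The difference of miR-206 itself was 0.60 (SE 0.25, limma adjusted p = 0.391), with overlap of the groups (4.52 on control 1, 4.43 on TGFβ 3). The part of miR-206 in the results below was not tested.

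Both miR-10 members had lower mean signal in TGFβ-treated than in control cells, by more than the SD of either group. Both miR-196 members were lower by more than the SD of 1 group only. None of the 4 passed the test with all 6 arrays. Without control 1, miR-10b passed as lower and the other 3 members did not, in a fit that called 31 of 85 miRNAs (36.5%). In that fit miR-196b (-0.35, limma adjusted p = 0.0623) lay close to miR-10a (-0.41, limma adjusted p = 0.0738). All 4 members had a negative difference (median -0.27), beside 49 of the 84 tested miRNAs (58.3%, median -0.09). Without control 1 all 4 were again negative (median -0.38), beside 48 of 85 (56.5%, median -0.09). limma called 0 of 84 miRNAs at an adjusted p under 0.05 (0% called; smallest adjusted p = 0.391), while 8 had an unadjusted p under 0.05, of which 3 were lower (3.57%) and none was a member. With the replicate number as a block, limma called 1, which was not a member.

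In control cells mmu-miR-10a read 8.21, 8.38 and 8.41 on arrays 1, 2 and 3, and with TGFβ it read 7.88, 8.20 and 7.89. The groups did not overlap, but control 1 and TGFβ 2 lay within 0.02 of each other. Groups with no overlap in this direction were found for 5 of the 84 tested miRNAs (5.95%). Control cells averaged 8.33 ± 0.11 and treated cells 7.99 ± 0.18 (SD, n = 3 each), so that the log2 difference was -0.35 (SE 0.16, 95% interval -0.73 to 0.04, limma adjusted p = 0.391). That is 0.787 times the control level, with an interval from 0.604 to 1.03. Without control 1 the difference was -0.41 (SE 0.14, limma adjusted p = 0.0738), and without TGFβ 1 it was -0.29 (SE 0.18), neither of which passed. Between arrays of the same replicate number it was -0.33, -0.19 and -0.52, negative in all 3.

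In control cells mmu-miR-10b read 4.36, 4.89 and 5.00 on arrays 1, 2 and 3, and with TGFβ it read 4.08, 4.42 and 4.19. Controls 2 and 3 were above every TGFβ array, while control 1 lay below TGFβ 2, so the groups overlapped. Between arrays of the same replicate number the difference was -0.28, -0.47 and -0.81, negative in all 3, and with that number as a block the limma adjusted p was 0.351. Control cells averaged 4.75 ± 0.34 and treated cells 4.23 ± 0.18 (SD, n = 3 each), so that the log2 difference was -0.52 (SE 0.22, 95% interval -1.05 to 0.01, limma adjusted p = 0.391). This was the largest of the 4 differences in size. Without control 1 miR-10b fell by 0.72 on the log2 scale (SE 0.14, limma adjusted p = 0.0208), to 0.607 times the level on controls 2 and 3 (95% interval 0.468 to 0.786). In that fit 20 of 85 miRNAs were called lower (23.5%), so 1 called member of 4 is close to the share over all miRNAs. That fit has only controls 2 and 3 in the control group, and with these averaged as 1 sample, assumed to vary like the TGFβ arrays, the difference of -0.71 (SE 0.26) had a limma adjusted p of 0.203. Without TGFβ 1 it was -0.44 (SE 0.25).

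In control cells mmu-miR-196a read 7.67, 7.48 and 7.55 on arrays 1, 2 and 3, and with TGFβ it read 7.02, 7.71 and 7.60. TGFβ 1 was the lowest array and TGFβ 2 the highest, so the spread within the treated group took in all controls. Control cells averaged 7.56 ± 0.10 and treated cells 7.44 ± 0.37 (SD, n = 3 each), so that the log2 difference was -0.12 (SE 0.22, 95% interval -0.65 to 0.41, limma adjusted p = 0.737). Between arrays of the same replicate number it was -0.64, 0.23 and 0.05. The direction rested on 1 array: without TGFβ 1 the difference was 0.09 (SE 0.15). Without control 1 it was -0.08 (SE 0.24, limma adjusted p = 0.859).

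In control cells mmu-miR-196b read 5.45, 5.88 and 5.95 on arrays 1, 2 and 3, and with TGFβ it read 5.63, 5.47 and 5.59. The TGFβ arrays lay close together, between control 1 below and controls 2 and 3 above. Control cells averaged 5.76 ± 0.27 and treated cells 5.57 ± 0.08 (SD, n = 3 each), so that the log2 difference was -0.19 (SE 0.18, 95% interval -0.63 to 0.25, limma adjusted p = 0.564). Without control 1 it was -0.35 (SE 0.11, limma adjusted p = 0.0623), and the groups did not overlap, as for 38 of 85 tested miRNAs in this direction (44.7%). Without TGFβ 1 it was -0.23 (SE 0.21), and between arrays of the same replicate number it was 0.18, -0.41 and -0.35.

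**Figure D1:**
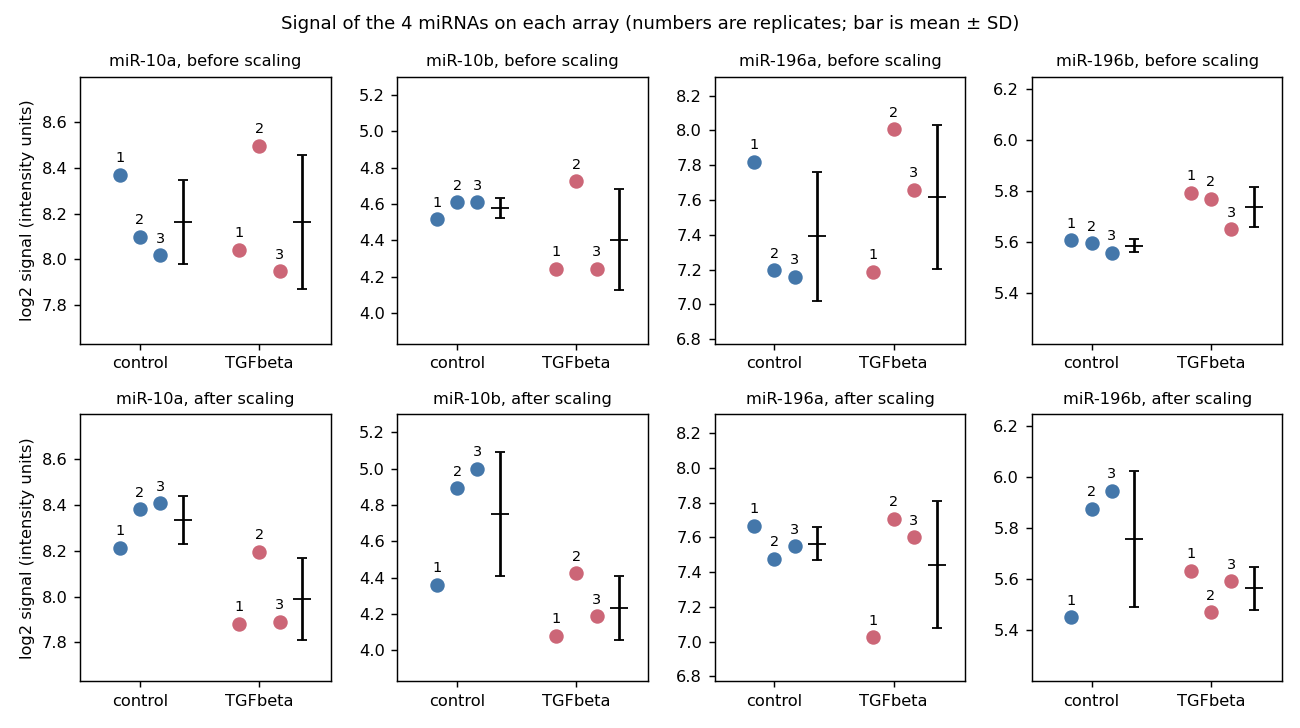
Log2 signal (y axis, intensity units) of each miRNA on the 3 control (blue) and 3 TGFβ (red) arrays, before (top) and after (bottom) scaling between arrays; numbers are replicates and bars are mean ± SD. After scaling, control 1 is the lowest control for miR-10a, miR-10b and miR-196b, and the TGFβ means are lower than the control means; before scaling the miR-10a means are equal and the miR-196a and miR-196b orders are turned.

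The differences depended on the scaling between arrays. Before scaling, miR-10a read 330.5, 274.3 and 259.3 intensity units in the 3 controls, and 263.7, 361.1 and 246.8 with TGFβ, with overlap. The log2 means of the groups were then both 8.16 (difference -6.9e-07, SE 0.21), so the lower level of miR-10a is a level relative to the other miRNAs on the array. Unscaled miR-10b read 22.9, 24.4 and 24.4 units in the controls and 18.9, 26.4 and 19.0 with TGFβ, so its difference was still negative (-0.17, SE 0.19) but rested on arrays that overlapped. Unscaled miR-196a read 226.1, 146.5 and 142.9 units in the controls and 145.5, 257.2 and 201.8 with TGFβ, a difference of 0.22 (SE 0.29). Control 1 and TGFβ 2 were the highest arrays for both miR-10a and miR-196a. Unscaled miR-196b differed by 0.15 (SE 0.14). For miR-196b the unscaled groups did not overlap, with 48.7, 48.3 and 47.1 units in the controls and 55.5, 54.6 and 50.2 with TGFβ, as for 11 of 84 miRNAs in this direction (13.1%). Without control 1 the unscaled differences were 0.10 (SE 0.21) for miR-10a, -0.21 (SE 0.20) for miR-10b, 0.44 (SE 0.27) for miR-196a and 0.16 (SE 0.13) for miR-196b. Without TGFβ 1 they were 0.06 (SE 0.26), -0.09 (SE 0.23), 0.44 (SE 0.29) and 0.12 (SE 0.19), so only miR-10b stayed negative in both. A positive unscaled difference over all 6 arrays, as of 2 of the 4 members, was seen for 67 of 84 miRNAs (79.8%). The scaling moved the median difference of all 84 tested miRNAs from 0.26 to -0.09. The differences of all 4 members were below that median. This holds on both scales by construction, since a factor per array shifts all differences alike, apart from values raised to the floor.

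**Figure D2:**
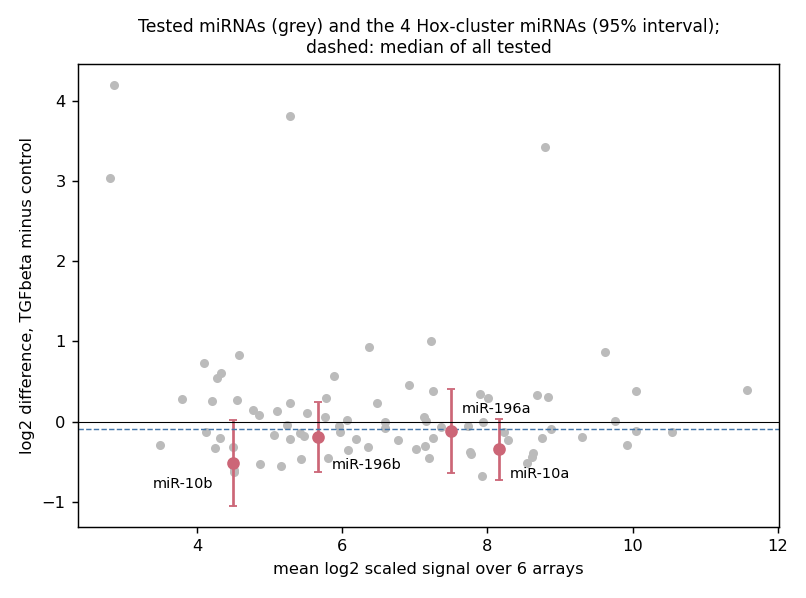
Log2 difference of TGFβ minus control (y axis) against the mean log2 scaled signal over 6 arrays (x axis) for the 84 tested miRNAs (grey points), with the 4 Hox-cluster miRNAs in red with 95% intervals and the median of all tested as a dashed line. The members lie among the other miRNAs, miR-10b (-0.52) and miR-10a (-0.35) below the median, and every interval crosses 0.

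After scaling, all 10 probes of the 4 miRNAs had a negative difference, from -0.03 to -0.54. Only 7 of these 10 were well above background on all 6 arrays, and only these 7 are among the 127 tested probes. Of the 127, 59.8% had a negative difference. Probes of 1 miRNA read the same samples, so their differences are not separate results. Of 480 member spots over the 6 arrays, 336 were well above background and 20 were marked as outliers. For miR-10a all 120 spots were well above background, for miR-196a 98 of 120, for miR-196b 65 and for miR-10b 53. Fitted over the 127 tested probes, none passed in limma (0% called, smallest adjusted p = 0.392; 12 at an unadjusted p under 0.05).

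The miR-10a probe A_54_P1423 read 8.81, 8.85 and 8.89 in the controls and 8.35, 8.67 and 8.36 with TGFβ, with no overlap (4.72% of tested probes in this direction) and a difference of -0.39 (SE 0.16, limma adjusted p = 0.392). This was -0.42 (SE 0.15) without control 1 and -0.33 (SE 0.17) without TGFβ 1. The other miR-10a probe, A_54_P1422, read 7.18, 7.68 and 7.67 on the controls and 7.19, 7.48 and 7.19 on the TGFβ arrays, a difference of -0.22 (SE 0.20) that was -0.39 (SE 0.14, limma adjusted p = 0.0875) without control 1 and -0.18 (SE 0.23) without TGFβ 1. So on control 1 the 2 probes of the same miRNA disagreed: one read like the other controls and one like the TGFβ arrays. The ratio of these probes was 1.63 log2 units on control 1 and 1.15 to 1.22 on the other 5 arrays. The spots of A_54_P1422 also varied most on control 1, with a coefficient of variation of 22.4%, beside a median of 9.02% over arrays.

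For miR-10b only A_54_P2342 was well above background, on all 6 arrays, with 4.93, 5.39 and 5.44 on the controls and 4.55, 4.87 and 4.72 on the TGFβ arrays. On TGFβ 1, 5 of its 10 spots were well above background. Its groups did not overlap, unlike those of the mean over probes, as for 6 of 127 tested probes in this direction (4.72%). Its difference was -0.54 (SE 0.20, limma adjusted p = 0.392), or -0.71 (SE 0.14, limma adjusted p = 0.0273) without control 1, where 21.1% of tested probes were called lower. Without TGFβ 1 it was -0.46 (SE 0.22). The other probe, A_54_P2341, was well above background on 0 arrays, so its -0.47 rests on signal near background. The miR-196b probe A_54_P2704 differed by -0.19 (SE 0.18), by -0.34 (SE 0.12, limma adjusted p = 0.0889) without control 1 and by -0.22 (SE 0.21) without TGFβ 1, and A_54_P2703 was well above background on 0 arrays. The 3 probes of miR-196a that were well above background on all arrays followed each other closely, with differences of -0.03, -0.13 and -0.15 (SE 0.21, 0.23 and 0.22), and each was lowest on TGFβ 1. They were -0.06, -0.05 and -0.08 without control 1, and 0.17, 0.09 and 0.06 without TGFβ 1.

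**Figure D3:**
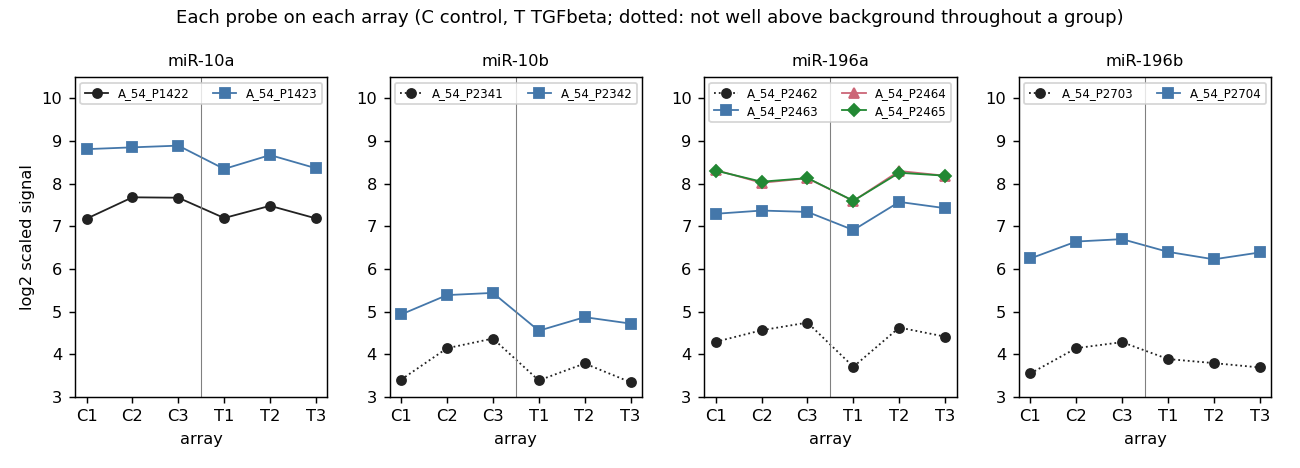
Log2 scaled signal (y axis) of each probe of the 4 miRNAs on controls C1 to C3 and TGFβ arrays T1 to T3 (x axis); dotted lines are probes not well above background throughout a group. The solid-line miR-196a probes share their lowest value on T1, and A_54_P1422 of miR-10a reads 7.18 on C1 against 7.68 and 7.67 on C2 and C3.

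Whether the members of a pair moved unequally was asked with the ratio within each array, which does not depend on a scaling factor per array. The absolute ratio also carries probe affinity and is not a ratio of molecules. miR-10b minus miR-10a averaged -3.58 ± 0.24 in control cells and -3.76 ± 0.05 with TGFβ (SD, n = 3 each), which differ by -0.17 (two-sided exact permutation p = 0.4, and 0.8 adjusted over 2 pairs). Controls 2 and 3 (-3.49 and -3.41) were above every TGFβ array (-3.80, -3.77 and -3.70), and control 1 (-3.85) was below them. miR-196b minus miR-196a was -1.81 ± 0.35 and -1.88 ± 0.44, a difference of -0.07 (exact permutation p = 0.9, adjusted 0.9). Without control 1 the differences were -0.31 for the miR-10 pair (exact permutation p = 0.1) and -0.28 for the miR-196 pair (p = 0.4). With or without control 1 this test cannot give a p below 0.1, so no unequal response within a pair could pass at 0.05, even where the groups separated fully as the miR-10 pair did without control 1.

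All 6 arrays lay on 1 slide and came from 1 scan, and the slide position held both groups in columns 1 and 2 and in row 1. Column 1 gave a difference (TGFβ 2 less control 1) of -0.02 for miR-10a, 0.06 for miR-10b, 0.04 for miR-196a and 0.02 for miR-196b. Column 2, with TGFβ 3 and control 2, gave -0.49, -0.71, 0.12 and -0.28 in the same order. The lower miR-10 values were thus seen in column 2 and not in column 1, which holds control 1. In row 1, TGFβ 1 minus the mean of the 3 controls was -0.45, -0.67, -0.54 and -0.13, and the other row held TGFβ arrays only. With column as a block the differences were -0.25 (SE 0.36) for miR-10a, -0.32 (SE 0.38) for miR-10b, 0.08 (SE 0.35) for miR-196a and -0.13 (SE 0.36) for miR-196b, and limma called 0 miRNAs. Control 3 and TGFβ 1 were each alone in a column (3 and 4), so these differences come from columns 1 and 2 only and restate their values above.

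**Figure D4:**
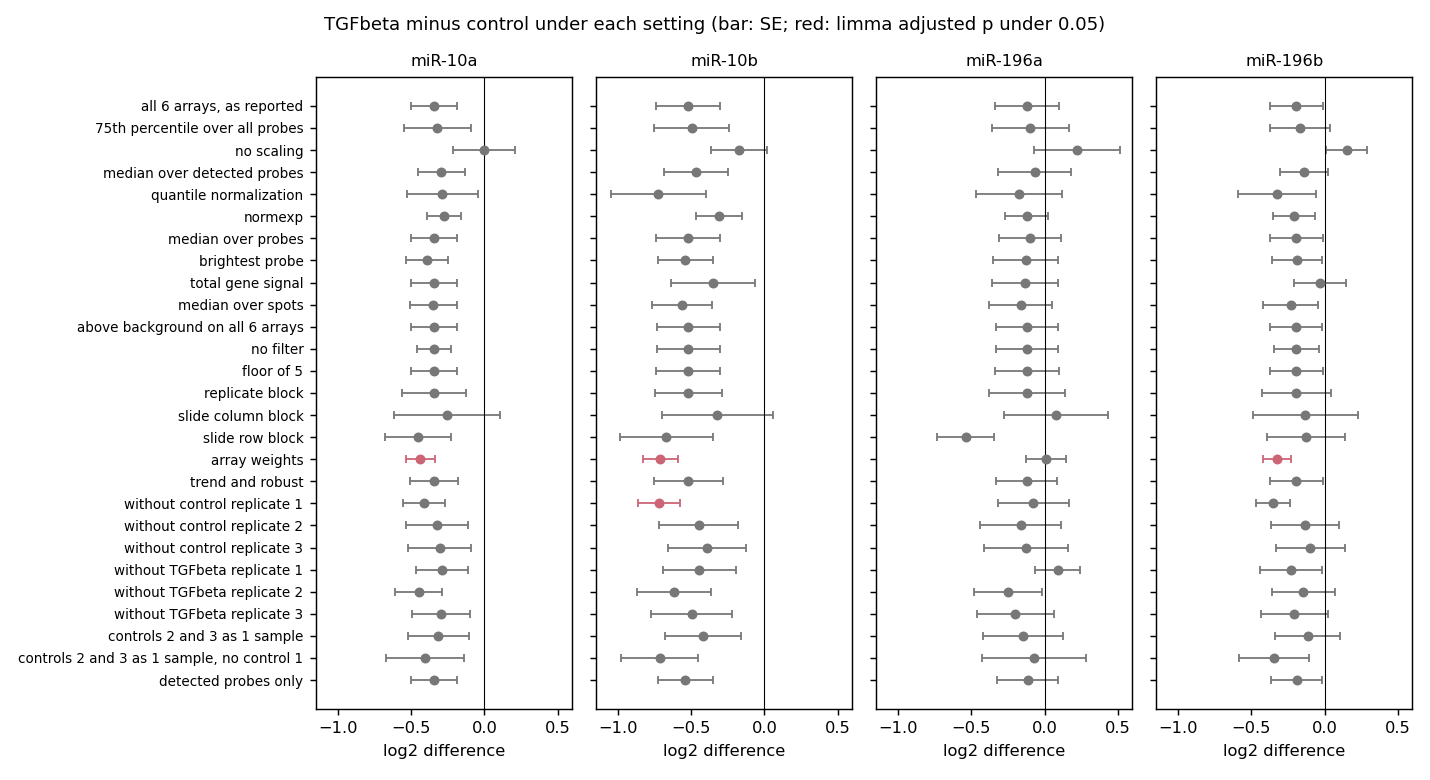
Log2 difference of TGFβ minus control (x axis, bars are SE) of each miRNA under each processing setting (y axis), with red where the limma adjusted p was under 0.05. miR-10b is below 0 in every setting shown, miR-10a is below 0 except without scaling, where it lies at 0 (-6.9e-07), and miR-196a lies on both sides of 0.

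Across the 6 arrays the members of the miR-10 pair varied together (Pearson r = 0.93 between miR-10a and miR-10b), while miR-196a and miR-196b did not (r = -0.23). miR-10b and miR-196b had r = 0.79, and miR-10a and miR-196a had r = 0.45. These correlations describe 6 arrays that share 1 slide and the scaling, and without control 1 they were 0.97, -0.08, 0.82 and 0.44 in the same order. Without TGFβ 1 they were 0.90, -0.90, 0.89 and -0.43, so those of miR-196a depended on that array. Among tested miRNAs outside the set, the most like miR-10a over the 6 arrays was miR-98 (r = 0.99), a let-7 family member, followed by miR-15b (0.92) and miR-423-5p (0.92). For miR-10b they were miR-342-3p (0.98), let-7d (0.98) and miR-107 (0.96). miR-196b was most like miR-26b (0.98), miR-30a* (0.98) and miR-221 (0.97). miR-196a, with less close matches, was most like miR-183 (0.94), let-7e (0.83) and miR-674* (0.82). Each of these was lowest on TGFβ 1 (7.16, 8.65 and 2.90 in the same order), as miR-196a was (7.02). The matches of each member are the highest picked from all tested miRNAs outside the set. None was computed again without an array, so how far they rest on 1 array was not tested.

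The other entries of the Hox clusters gave no signal. The opposite arms miR-10a*, miR-10b* and miR-196a-2* and both arms of miR-615, whose gene lies within Hoxc5, were well above background on 0 of 6 arrays (0 of 5 entries tested). Before scaling, the mean over probes was at most 1.02 units for miR-10a*, 0.0938 for miR-10b* and 1.16 for miR-615-3p, so no fold is given.

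miR-99a, miR-99b and miR-100 resemble the miR-10 family in sequence, but their seed is ACCCGUA, which shares a run of 4 bases with that of miR-10. Of these 3, only miR-99b was tested, and miR-99a and miR-100 were well above background on 0 arrays. miR-99b, printed with its seed in capitals, is:
miR-99b: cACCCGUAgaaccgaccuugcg
It read 4.92, 5.31 and 5.28 in the controls and 5.64, 5.33 and 5.21 with TGFβ, with overlap. Its difference was 0.23 (SE 0.19, limma adjusted p = 0.520), opposite in sign to both miR-10 members, 0.09 (SE 0.15) without control 1 and 0.10 (SE 0.19) without TGFβ 1. The difference between miR-99b and the miR-10 members was not tested. The seed of miR-196, in turn, shares a run of 6 bases, AGGUAG, with the let-7 seed GAGGUAG, shifted by 1 base.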

How the data were processed

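miRNA was measured on 6 one-colour Agilent arrays, 1 per sample. The input was 100 ng of total RNA, labelled with Cy3 per the protocols. The deposited intensity values come from Agilent Feature Extraction, which subtracts background within an array and leaves arrays unscaled, per the file headers (version 10.7.3.1 there, 10.1.1 in the submitters' processing notes). The deposited series value table held the same intensities (largest difference 0). No spot was saturated.

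Spots without outlier marks were averaged per probe, and probes per miRNA. Arrays were scaled to the same 75th percentile of the 105 probes detected on all 6. Values under a floor of 1 were raised to it before log2. Detection (well above background) of a probe needed 0.5 or more of its spots, and detection of a miRNA 1 such probe. miRNAs well above background on all arrays of a group entered limma 3.58.1 (R 4.3.3). Its moderated test was two-sided, with Benjamini-Hochberg adjustment over all of them, and the code was tested on simulated data. The number of arrays limits the precision. Sequences and hairpin positions are from RefSeq tables on GRCm38.p6. Figures used matplotlib 3.10.9.

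The members, the lists and the rule for named miRNAs (members, Hox-cluster entries, miR-99a, miR-99b and miR-100, and the 3 best correlated miRNAs per member) were chosen with earlier results of these data known. Controls 2 and 3 were the most alike arrays, with 25.0% of probes differing by over 2 spot standard errors (41.5% to 87.2% in the other pairs). They were counted as 2 samples as labelled. Spot errors cover noise within an array only, so whether they hold the same RNA cannot be told from this. Deviations from the group means correlated between same-numbered samples (r = 0.38, 0.37 and 0.52). These r values are not independent, and differently numbered samples were not compared in this way, so whether the numbers pair the samples was not tested. By the median absolute log2 difference control 1 was nearer to TGFβ 3 (0.16) and TGFβ 2 (0.21) than to TGFβ 1 (0.26). The main fit was unpaired, and the replicate number entered as a block only among the alternatives. The alternatives concerned scaling, background, probe and spot summary, filter, floor, blocks, weights and the arrays used.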

Additional observations from a re-analysis of the deposited data

How the results depend on the processing

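Over 26 alternatives the log2 difference of miR-10a lay between -0.45 and -6.9e-07 and that of miR-10b between -0.73 and -0.17. miR-10b kept its sign, and miR-10a was negative except without scaling, where its difference was nil (-6.9e-07). In unscaled fits not among the 26, miR-10a was 0.10 without control 1 and 0.06 without TGFβ 1. miR-196a changed sign in 4 of the alternatives and miR-196b in 1. Without scaling miR-196a was 0.22 and miR-196b 0.15; miR-196a was 0.0811 with the slide column as a block and 0.011 with array weights. Array weights gave control 1 a weight of 0.144 (the other arrays 0.516 to 3.71; the estimate stopped before its tolerance was met) and called 45 of 84 miRNAs (53.6%; 27 lower, 32.1%), among them miR-10a (-0.44), miR-10b (-0.71) and miR-196b (-0.32). The slide row as a block called 3. With the replicate block 1 miRNA was called in place of 0, and the block changed no member's call (limma adjusted p between 0.351 and 0.810). Leaving out 1 array gave 0 to 31 called miRNAs, 31 without control 1 and 0 otherwise, and ranges of -0.45 to -0.29 for miR-10a, -0.72 to -0.39 for miR-10b, -0.25 to 0.0891 (without TGFβ 1) for miR-196a, -0.35 to -0.10 for miR-196b, -0.31 to -0.09 for miR-10b minus miR-10a and -0.32 to 0.11 for miR-196b minus miR-196a. Over 16 alternatives miR-10b minus miR-10a lay between -0.44 (quantile normalization) and -0.0091 (total gene signal), and it was -0.04 with normexp. miR-196b minus miR-196a was 0.10 with total gene signal and 0.0297 with controls 2 and 3 as 1 sample, an alternative added after the data were seen, as was the use of detected probes alone. Also added then, controls 2 and 3 as 1 sample with no control 1 called 1 miRNA, not a member. The limma adjusted p ranged over the alternatives from 0.0131 to 1.00 for miR-10a, 0.00594 to 0.976 for miR-10b, 0.303 to 1 for miR-196a, and 0.0307 to 0.976 for miR-196b. The causes of these shifts were not tested. Normexp was run on the median spot signal. Signal over background limits miR-10b and miR-196b, whose second probes were not well above background.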

Other observations

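A higher ratio between probes on control 1, as for miR-10a, was also seen at some other miRNAs, but not at all. Over the 34 miRNAs with at least 2 probes well above background on all 6 arrays, the median log2 ratio of the brightest to the next probe was 2.33 on control 1 and between 2.07 and 2.19 on the other 5 arrays. Control 1 had the highest ratio of the 6 arrays for 17 of the 34, miR-10a among them, and each other array for 1 to 7. The ratio on control 1 less the median of the other 5 arrays was 0.45 for miR-10a. It was largest for miR-342-3p (0.61) and most negative for miR-27a (-0.45), so size and direction varied between miRNAs. The ratio was chosen after the miR-10a probes had been seen, and its relation to the labelling spike-in signal of control 1 was not tested.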
